A study of Mus musculus with 13 samples.

Results

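The genes described here take glucose into the cell, break it down to pyruvate and lactate, and burn pyruvate in the mitochondrion. They were 37 genes chosen by name, 22 of glucose and lactate transport, glycolysis and its regulators and 15 of pyruvate dehydrogenase and the tricarboxylic acid (TCA) cycle. Each was read from the brightest of the probe sets annotated with that symbol alone, which gave 19 glycolysis genes and all 15 TCA cycle genes, 34 of the 19752 genes tested. Gpi1 and Eno1 had no such probe set, Gapdh was named only in 19 probe sets that also name other genes, and these 3 were not analysed here. Copies of Pgk1, Pgam1, Ldha, Tpi1 and Aldoa elsewhere in the mouse genome could share probes with the parent gene, so their values are uncertain to that extent. Second probe sets, given below for Pgam1 and Ldhb, were not located in the genome and need not be independent readings.

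The study asked how loss of the transcription factor Sox4 changes thymocytes, in immature γδ cells that use the Vγ2 receptor chain (V2) and in CD4+ CD8+ double positive (DP) cells of the αβ lineage. Both were sorted on a FACSAria from thymus of mice aged 2 weeks, sex given as mixed, V2 cells as TCRd+ Vg2+ HSAhi without CD4 and CD8, and total RNA was hybridised to Affymetrix arrays. As labelled there were 4 V2 wild type (WT), 4 V2 knockout, 2 DP WT and 3 DP knockout arrays, and the knockout is a conditional one (Sox4 cKO) whose Cre driver the labels do not give. V2 titles are written in 2 ways, V2imm and immV2, with 4 arrays each, and the V2imm titles say KO without naming the gene. The labels do not say whether arrays came from separate mice, so p-values measure the spread between arrays, which may be technical.

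The array labelled DP cKO replicate 5 and the array labelled V2 WT replicate 5 of the immV2 titles are shown apart throughout and enter no mean. The first had Cd4 at 7.47 and the γδ lineage genes Sox13 at 11.5 and Etv5 at 12.01 on the log2 intensity scale, and the second had Cd4 at 12.6, Sox13 at 7.73 and Etv5 at 6.60. In the other arrays Cd4 lay at 6.71 to 7.36 in V2 and at 12.36 to 12.62 in DP cells, so each array carried the markers of the other population. Of the 11 remaining arrays 7 were V2 (3 WT and 4 cKO) and 4 were DP (2 of each genotype), and array medians over all 13 ran from 122.2 to 137.2 in linear intensity. Sox4 itself was read at 8.64, 8.71 and 9.68 in V2 WT, at 8.07, 8.11, 8.23 and 9.60 in V2 cKO, at 8.55 and 9.37 in DP WT and at 8.68 and 8.74 in DP cKO. The value of 9.60 belongs to the array labelled V2 cKO replicate 5 of the V2imm titles and goes against its label, and DP values overlapped. The labels do not say where the Sox4 probes lie against the deleted part, so the probe set does not check the genotypes, which are taken from the labels alone.

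Glucose enters lymphocytes through carriers of the Slc2a family, is trapped by hexokinase and is split and oxidised to pyruvate by the glycolytic enzymes. Lactate dehydrogenase converts pyruvate and lactate into each other, and is a tetramer of Ldha and Ldhb subunits, where Ldha favours lactate formation and Ldhb the use of lactate. Slc16a1 and Slc16a3 carry lactate and pyruvate across the plasma membrane. Pyruvate dehydrogenase, which Pdk1 inhibits, feeds acetyl-CoA into the TCA cycle. Proliferating thymocytes are known for high glucose use. Glycolysis genes are textbook targets of Myc and of the hypoxia-inducible factors, which bind short cores such as ACGTG.

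The promoters of both lactate dehydrogenase genes, and of the lactate carrier that was lower in V2 cells together with Ldhb, are shown here from RefSeq (GRCm38.p6). Each is the 250 bases before the gene's start, read 5′ to 3′ on the gene's strand, and capitals mark ACGTG or its reverse complement CACGT, joined where they overlap. The palindrome CACGTG, the E-box that Myc and related factors recognise, holds both and counts as a match on each strand. Ldha has 2 start windows in the table, and the one farther upstream is printed. It lies on the plus strand at chr7:46845554-46845803, Ldhb on the minus strand at chr6:142507958-142508207 and Slc16a1 on the plus strand at chr3:104638414-104638663.
Ldha: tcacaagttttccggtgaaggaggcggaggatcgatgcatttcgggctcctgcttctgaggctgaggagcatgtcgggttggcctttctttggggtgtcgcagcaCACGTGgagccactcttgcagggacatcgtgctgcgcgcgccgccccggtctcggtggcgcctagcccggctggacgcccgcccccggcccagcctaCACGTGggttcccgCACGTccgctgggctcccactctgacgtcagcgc
Ldhb: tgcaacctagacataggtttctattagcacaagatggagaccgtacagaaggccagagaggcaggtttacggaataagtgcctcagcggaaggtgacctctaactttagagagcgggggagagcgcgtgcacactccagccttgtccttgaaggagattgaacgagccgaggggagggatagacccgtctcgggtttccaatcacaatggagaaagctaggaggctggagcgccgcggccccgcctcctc
Slc16a1: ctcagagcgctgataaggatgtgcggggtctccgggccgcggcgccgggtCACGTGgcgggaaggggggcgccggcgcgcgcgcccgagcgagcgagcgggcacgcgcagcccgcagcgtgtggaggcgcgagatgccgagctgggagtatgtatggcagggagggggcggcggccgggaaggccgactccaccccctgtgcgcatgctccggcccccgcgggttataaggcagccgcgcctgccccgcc
The printed Ldha window held 5 matches to ACGTG and 2 E-boxes, while its other window, at chr7:46846832-46847081, held 0 of either, as did the Ldhb window. The Slc16a1 window held 2 matches and 1 E-box. Of the 34 measured genes, 32 were in the RefSeq table with 48 start windows, and Slc2a3 was not. ACGTG was present in 23 of these windows (47.9%), against 16.6% of the 32851 windows of all genes, and the variant GCGTG was not searched. CACGTG was in 7 of the 48 (14.6%) against 6.02% of all, and AACAAAG, a site of HMG box factors such as Sox proteins, searched on both strands, in 1 (2.08%) against 5.03%. Windows of the same gene can overlap, as those of Ogdh and Aldoa do, so a site can count in several windows. The shares are therefore not shares of genes. A match describes the letters only, and shows no binding.

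In WT thymocytes the glucose transporter Slc2a3 was 4.11-fold higher in V2 than in DP cells, Ldhb was 4.82-fold lower and the lactate carrier Slc16a1 was 1.98-fold lower. Those 3 of the 19 glycolysis genes, 1 higher and 2 lower, passed the test (limma, Benjamini-Hochberg adjusted p under 0.05 over all genes), and 0 of the 15 TCA cycle genes did. Of all genes tested, 4.87% passed. At an unadjusted p under 0.05 there were 8 glycolysis and 0 TCA cycle genes, 5 of the 8 higher in V2 and 3 lower, where 8.58% of all genes were higher and 5.46% lower. The median difference was 0.23 over the glycolysis genes and 0.14 over the TCA cycle genes, against -0.02 over all genes. With all 13 arrays as labelled, 0 of the 34 genes passed.

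In cKO cells 4 of 19 glycolysis genes passed between the populations, against 5.45% of all genes. Slc16a1 (3.01-fold) and Ldhb (3.35-fold) were again lower in V2, and Aldoc (1.89-fold) and Pgam1 (1.83-fold) were higher. Again 0 of 15 TCA cycle genes passed, and at an unadjusted p there were 6 glycolysis genes and 1 TCA cycle gene, where 14.3% of all genes passed. The WT and cKO differences share no array as such, but come from 1 fit with a common title set term and spread, so they are not independent. Described in that way, 18 of 19 glycolysis genes (94.7%) had the same sign in both, as did 10 of 15 TCA cycle genes (66.7%) and 68.1% of all genes. With all 13 arrays as labelled, 0 of the 34 passed here too. Every V2 mean in these comparisons is set midway between V2imm and immV2 titles, with 1 title set difference fitted over both genotypes. The V2 WT mean can thus differ from the plain midpoint of its own arrays.

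**Figure D1:**
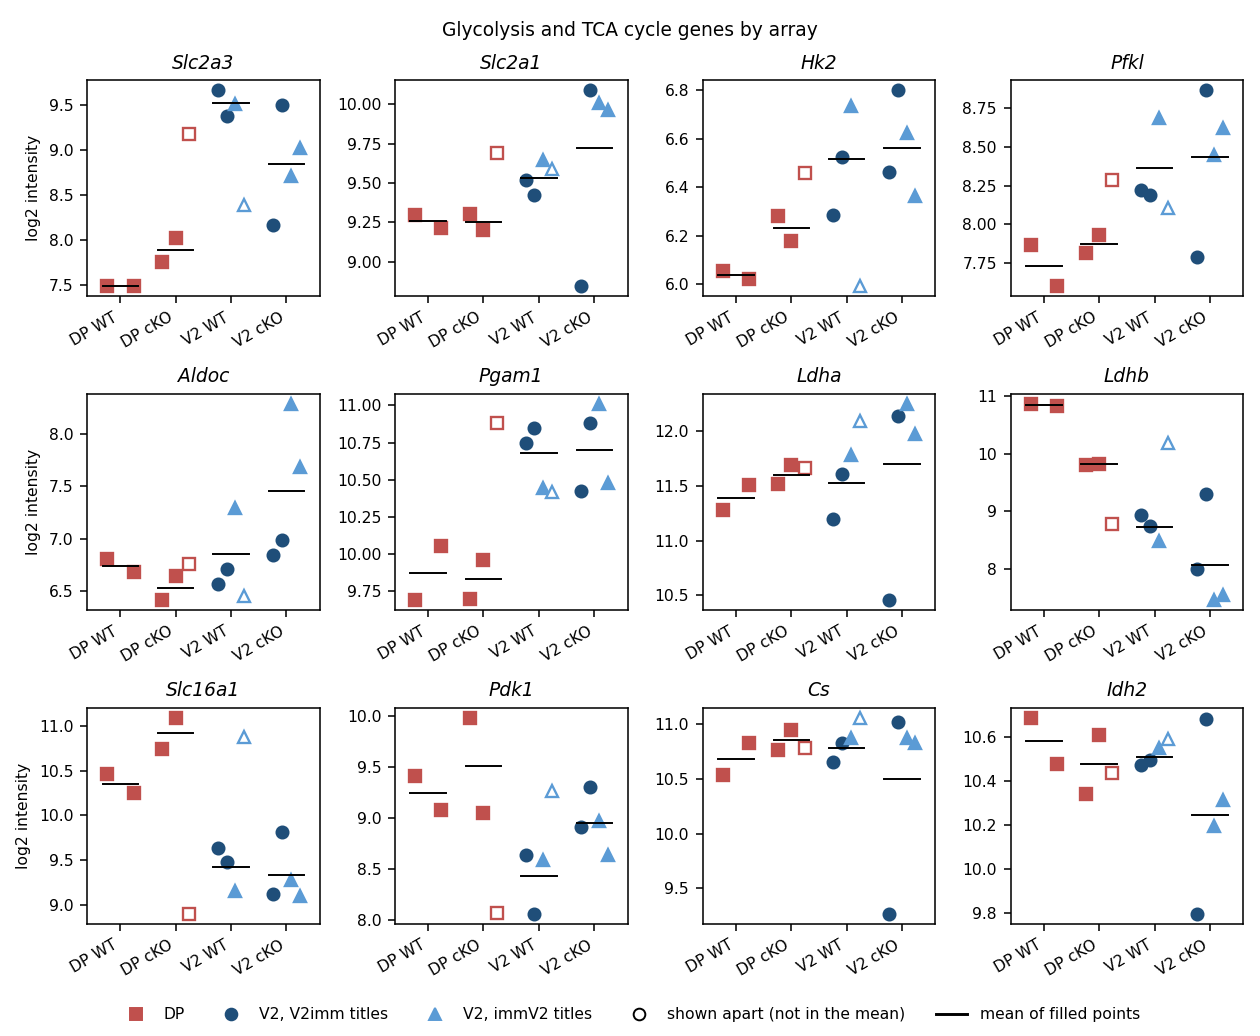
Log2 intensity (vertical axis) of 12 genes in each array, by group (horizontal axis), where each symbol is an array, open symbols are the 2 arrays shown apart and bars are means of the filled symbols. Slc2a3 lay at 8.16 or above in every V2 array and at 8.03 or below in the 4 DP arrays, and Ldhb lay below every DP array in V2 cells.

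Slc2a3 encodes a high-affinity glucose transporter. On the log2 scale it read 9.39, 9.51 and 9.67 in V2 WT, 8.16, 8.72, 9.02 and 9.50 in V2 cKO, 7.48 and 7.49 in DP WT and 7.75 and 8.03 in DP cKO. All 7 V2 arrays lay above all 4 DP arrays, and the V2 cKO arrays were the more spread. The WT difference was 2.04 (SE 0.304, adjusted p = 0.00115, limma) and the cKO difference was 0.96 (SE 0.286, adjusted p = 0.0800), which missed the threshold. Without V2 cKO replicate 4 of the V2imm titles, the lowest V2 array, the cKO difference was 1.24 and passed (adjusted p = 0.00110), without V2 cKO replicate 5 of the V2imm titles it was 0.69 (adjusted p = 0.0649), and with 13 arrays as labelled it was 0.53 (adjusted p = 0.785).

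Slc2a1 encodes the widely expressed glucose transporter of growing cells, and did not pass in either genotype. It read 9.42, 9.52 and 9.65 in V2 WT, 8.84, 9.96, 10.00 and 10.09 in V2 cKO, 9.22 and 9.30 in DP WT and 9.20 and 9.30 in DP cKO. Only V2 cKO replicate 4 of the V2imm titles fell inside or under the DP range. The differences were 0.34 (SE 0.289) in WT and 0.47 (SE 0.271) in cKO cells, and without that array the cKO difference was 0.76 and passed (adjusted p = 0.00664). It was 0.24 (adjusted p = 0.583) without V2 cKO replicate 5 of the V2imm titles, and 0.21 (adjusted p = 0.881) against the V2imm arrays alone.

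Slc16a1, which carries lactate and pyruvate, ran the other way. It read 9.15, 9.48 and 9.64 in V2 WT, 9.10, 9.12, 9.28 and 9.82 in V2 cKO, 10.25 and 10.46 in DP WT and 10.75 and 11.09 in DP cKO. All V2 arrays lay below all DP arrays. The difference was -0.99 (SE 0.229, adjusted p = 0.0244) in WT and -1.59 (SE 0.215, adjusted p = 0.000520) in cKO cells. The WT call was lost without any single one of the 3 V2 WT arrays (adjusted p from 0.0664 to 0.146) or of the 2 DP WT arrays (0.0656 and 0.202), with differences of -0.88 to -1.09. Slc16a3, the lactate exporter of highly glycolytic cells, lay between 7.25 and 7.52 in all 11 arrays, with differences of -0.07 (SE 0.143) in WT and -0.11 (SE 0.135) in cKO cells.

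In the upper steps of glycolysis no gene passed in WT cells and Aldoc alone passed in cKO cells. Hk2, the inducible hexokinase, read 6.28, 6.52 and 6.74 in V2 WT and 6.36, 6.46, 6.62 and 6.80 in V2 cKO, against 6.02 and 6.05 in DP WT and 6.18 and 6.28 in DP cKO. Every V2 value was above every DP value, by little, in a range just over the lower quartile of all genes (5.79 to 6.11 by array). Its differences of 0.49 (SE 0.166, adjusted p = 0.146) and 0.33 (SE 0.156, adjusted p = 0.358) missed the threshold. Hk1, the constitutive hexokinase, differed by 0.19 (SE 0.189) and 0.30 (SE 0.178).

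The 3 phosphofructokinase genes, which encode subunits of the committed step, did not share a direction. Pfkl was 0.69 (SE 0.258) higher in V2 WT than DP WT and 0.56 (SE 0.243) higher in cKO cells, Pfkp was -0.46 (SE 0.305) and -0.54 (SE 0.286), and Pfkm was 0.22 (SE 0.257) and -0.01 (SE 0.242). None passed in either genotype. Pfkl read 8.19, 8.22 and 8.69 in V2 WT and 7.79, 8.45, 8.62 and 8.87 in V2 cKO against 7.60 to 7.93 over the 4 DP arrays, so V2 cKO replicate 4 of the V2imm titles alone overlapped.

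Aldolase splits fructose bisphosphate, and Aldoc is the form best known from brain. Aldoc read 6.56, 6.71 and 7.30 in V2 WT, 6.84, 6.99, 7.69 and 8.28 in V2 cKO, 6.68 and 6.80 in DP WT and 6.41 and 6.65 in DP cKO. The high V2 values were the 3 immV2 arrays, at 7.30 or above, and the V2imm arrays at 6.56 to 6.99 reached into the DP range. The cKO difference was 0.92 (SE 0.177, adjusted p = 0.00684) and the WT difference 0.27 (SE 0.189). Against the V2imm arrays alone the cKO difference was 0.39 (adjusted p = 0.374), and the call was also lost without DP cKO replicate 3 (0.80, adjusted p = 0.141), without the title set (adjusted p = 0.254) and with only the groups compared (adjusted p = 0.0646). Aldoa, the aldolase of muscle, differed by 0.80 (SE 0.327, adjusted p = 0.266) and 0.60 (SE 0.307, adjusted p = 0.435). Tpi1, which interconverts the triose phosphates, differed by 0.50 (SE 0.447) and 0.01 (SE 0.420).

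In the lower steps of glycolysis, Pgam1, the phosphoglycerate mutase, was higher in V2 cells. It read 10.44, 10.75 and 10.85 in V2 WT, 10.43, 10.48, 10.88 and 11.01 in V2 cKO, 9.69 and 10.05 in DP WT and 9.70 and 9.96 in DP cKO. All V2 arrays lay above all DP arrays. The WT difference of 0.79 (SE 0.239, adjusted p = 0.0881) missed the threshold and the cKO difference of 0.87 (SE 0.225, adjusted p = 0.0399) passed, in 10 of 24 alternative fits. That call was lost, with adjusted p from 0.0506 to 0.427, without V2 WT replicate 4 or 5 or V2 cKO replicate 5 of the V2imm titles, V2 cKO replicate 3 or 4 of the immV2 titles, or DP cKO replicate 3 or 4. Its second probe set gave 0.71 in WT. Pgk1, an ATP-forming step, differed by 0.21 (SE 0.261) and 0.30 (SE 0.245), and Pkm, the pyruvate kinase of non-liver tissue, by 0.23 (SE 0.326) and 0.58 (SE 0.306).

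The lactate dehydrogenase subunits parted. Ldhb read 8.48, 8.75 and 8.94 in V2 WT, 7.45, 7.55, 8.002 and 9.30 in V2 cKO, 10.83 and 10.87 in DP WT and 9.81 and 9.83 in DP cKO, so every V2 array lay below every DP array. The difference was -2.27 (SE 0.316, adjusted p = 0.000684) in WT, -2.05 with its second probe set, and -1.74 (SE 0.297, adjusted p = 0.00291) in cKO cells. Against the V2imm arrays alone the cKO difference was -1.17 (adjusted p = 0.120). Ldha read 11.20, 11.61 and 11.78 in V2 WT, 10.46, 11.97, 12.14 and 12.25 in V2 cKO, 11.28 and 11.51 in DP WT and 11.52 and 11.69 in DP cKO. Its ranges overlapped and its differences were 0.24 (SE 0.371) and 0.10 (SE 0.348), with a 95% interval of -0.56 to 1.04 in WT.

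The 2 probe sets cannot be set against each other as amounts, but their log2 difference can be compared between arrays. Ldha minus Ldhb ran from 2.26 to 4.80 with a median of 2.86 over the 7 V2 arrays, and was 0.41 and 0.67 in DP WT and 1.71 and 1.87 in DP cKO. Every V2 array exceeded every DP array. The DP cKO values also lay above the DP WT values, a difference that was not tested.

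Of the 2 regulators, Pdk1, the kinase that shuts pyruvate dehydrogenase, read 8.06, 8.59 and 8.64 in V2 WT, 8.63, 8.91, 8.97 and 9.30 in V2 cKO, 9.08 and 9.41 in DP WT and 9.04 and 9.99 in DP cKO. All V2 WT arrays lay below all DP arrays, with a difference of -0.83 (SE 0.296, adjusted p = 0.170) that missed the threshold, and V2 cKO overlapped DP cKO, at -0.56 (SE 0.278). Pfkfb3, which makes the activator of phosphofructokinase, differed by -0.13 (SE 0.168) and -0.05 (SE 0.158).

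Over the 7 V2 and 4 DP arrays, Slc2a3, Hk2 and Pgam1 lay above in every V2 array, as did 4.79% of all genes, and Slc16a1 and Ldhb lay below, as did 3.49%. Of the TCA cycle genes 0 separated the populations either way. A comparison added after the data were seen, the mean of the WT and cKO differences, had 8 of 19 glycolysis genes past the threshold against 10.7% of all genes, and 0 of 15 TCA cycle genes. At an unadjusted p these were 10 and 2, where 20.6% of all genes passed. Higher in V2 were Slc2a3 (1.50, SE 0.209), Pgam1 (0.83, SE 0.164), Pfkl (0.62, SE 0.177), Aldoc (0.59, SE 0.130) and Hk2 (0.41, SE 0.114). Lower were Ldhb (-2.01, SE 0.217), Slc16a1 (-1.29, SE 0.157) and Pdk1 (-0.70, SE 0.203). Without V2 WT replicate 5 of the V2imm titles, without V2 WT replicate 3 or V2 cKO replicate 3 of the immV2 titles, or without either DP WT array, 5 glycolysis genes passed. Without DP cKO replicate 3 there were 4, among 1381 of all genes, and without V2 cKO replicate 4 of the V2imm titles 11, among 3118. With 13 arrays as labelled there were 0, among 95 of all genes.

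**Figure D2:**
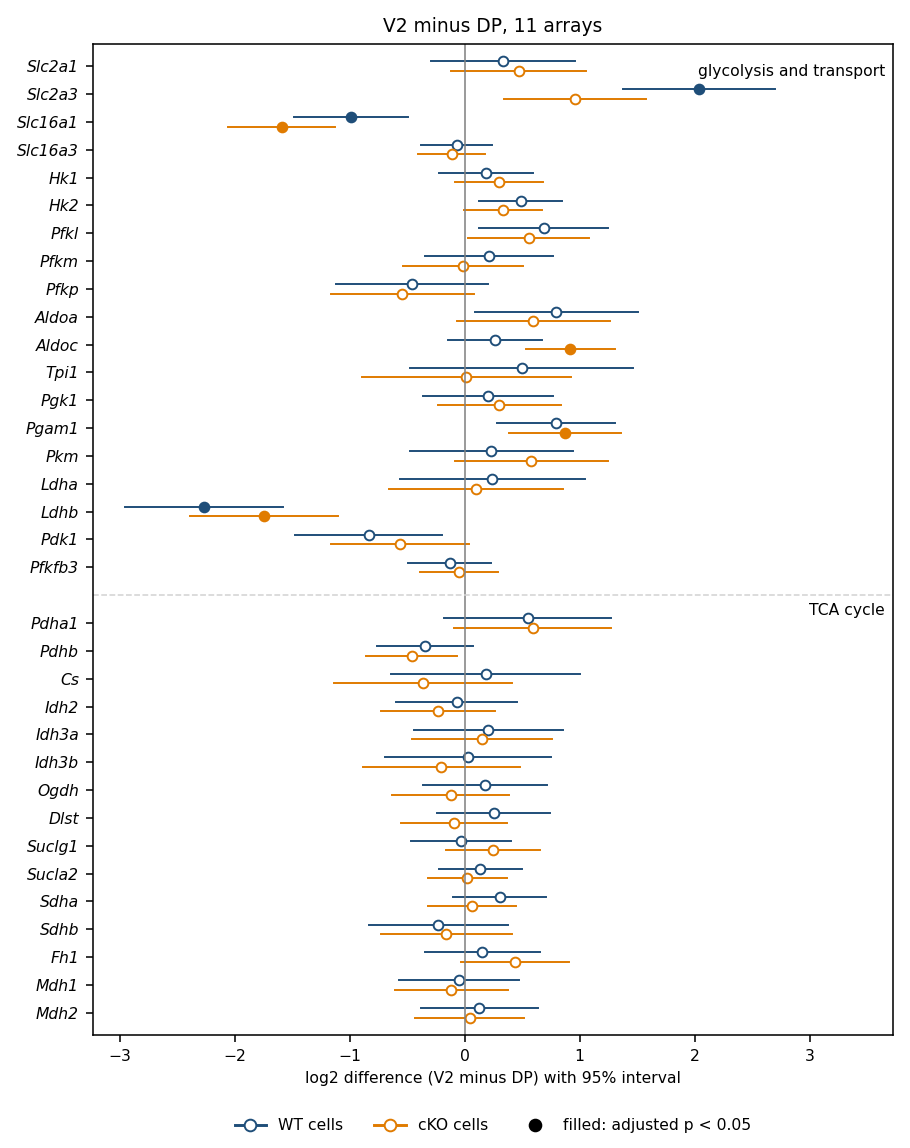
Log2 difference V2 minus DP (horizontal axis) with its 95% interval for each gene (vertical axis), in WT and in cKO cells, with filled points past an adjusted p of 0.05. Slc2a3, Slc16a1 and Ldhb stand farthest from 0 in WT cells, and every TCA cycle point is open.

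The TCA cycle genes varied less between the groups than the glycolysis genes did. The range of the 4 group means was under 0.5 log2 for 13 of the 15 TCA cycle genes, with a median of 0.34, for 8 of the 19 glycolysis genes, with a median of 0.58, and for 15754 of all 19752 genes, with a median of 0.25. The 2 TCA cycle genes not under 0.5 were the pyruvate dehydrogenase subunits. Pdha1 read 9.53, 9.75 and 10.54 in V2 WT and 9.31 and 9.58 in DP WT, a difference of 0.55 (SE 0.335, adjusted p = 0.581). Pdhb read 7.83, 7.85 and 8.51 in V2 WT and 8.45 and 8.58 in DP WT, a difference of -0.35 (SE 0.194, adjusted p = 0.518), and in cKO cells it was -0.46 (SE 0.182, adjusted p = 0.238). The 2 subunits of 1 enzyme thus differed in sign, and neither passed.

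Citrate synthase (Cs), which opens the cycle, read 10.65, 10.83 and 10.87 in V2 WT and 10.53 and 10.82 in DP WT, overlapping ranges with a difference of 0.18 (SE 0.379). Idh2, the mitochondrial NADP-linked isocitrate dehydrogenase, read 10.48, 10.50 and 10.55 in V2 WT and 10.48 and 10.69 in DP WT, a difference of -0.07 (SE 0.244). Sdha, the succinate dehydrogenase flavoprotein, differed by 0.30 (SE 0.188) and Dlst, the 2-oxoglutarate dehydrogenase transferase, by 0.25 (SE 0.225), the smallest p-values beside pyruvate dehydrogenase in WT. In cKO cells those were Fh1, fumarase, at 0.44 (SE 0.217, adjusted p = 0.401) and Suclg1, the alpha subunit of succinyl-CoA ligase, at 0.25 (SE 0.190). The 95% interval of the WT difference was narrowest among the 15 genes for Sucla2, a succinyl-CoA ligase subunit, at -0.23 to 0.50, and that of Cs was wide, at -0.64 to 1.004.

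**Figure D3:**
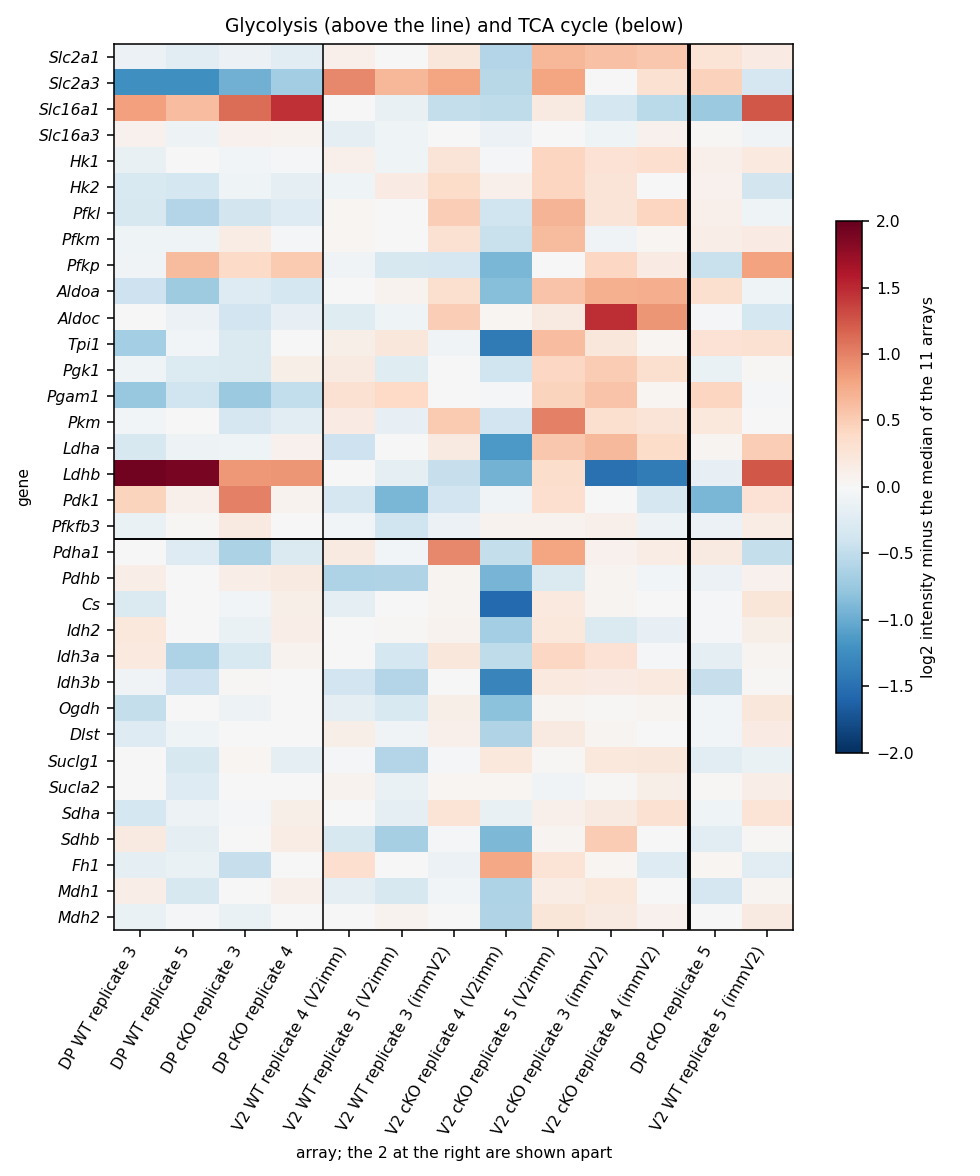
Log2 intensity minus the gene's median over the 11 arrays (colour), for 34 genes (rows) in 13 arrays (columns), with the 2 arrays shown apart at the right. Ldhb and Slc16a1 are red in the DP arrays and Slc2a3 is blue there, and the column of V2 cKO replicate 4 of the V2imm titles is blue in most rows.

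Markers of other cell types and of the cell cycle were also summed by array, and only the stromal and epithelial sum separated V2 from DP arrays. The 10 stromal and epithelial markers summed to 2014 to 2594 in linear intensity in V2 arrays and 1777 to 1954 in DP arrays, and the 10 macrophage and dendritic markers to 1405 to 6023 in V2imm arrays, 799 to 1193 in immV2 arrays and 860 to 961 in DP arrays. The sum of 6023 belongs to V2 cKO replicate 5 of the V2imm titles. Of both lists 0 genes passed between V2 WT and DP WT. The 16 muscle markers, a tissue rich in glycolytic enzymes, summed to 2117 to 6532 in DP arrays, highest in DP cKO replicate 3, and 1905 to 2325 in V2. The 19 measured cell cycle genes summed to 27317 to 35795 in V2 arrays and 28848 to 43105 in DP arrays. The 5 B cell markers (622 to 1635 in V2, 985 to 1490 in DP), the 8 granulocyte markers (433 to 755 and 478 to 540) and the 4 erythroid markers (363 to 466 and 383 to 427) overlapped. The part of these cells or of division in the differences was not tested, and in bulk samples fewer cells of a type and less RNA per cell cannot be told apart.

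Between V2 cKO and V2 WT cells, 0 of the 34 glycolysis and TCA cycle genes passed the test. Of all genes 0% passed the adjusted test (limma) and 3.83% an unadjusted p under 0.05, against 3 of 19 glycolysis and 0 of 15 TCA cycle genes at the latter. These 3 were Aldoc at 0.44 (SE 0.159), Slc2a3 at -0.67 (SE 0.256) and Pdk1 at 0.54 (SE 0.248), each with an adjusted p of 0.999. Ldhb was next, at -0.51 (SE 0.266). In the TCA cycle Suclg1 was at 0.36 (SE 0.170), Idh2 at -0.27 (SE 0.205), Cs at -0.37 (SE 0.318) and Fh1 at 0.21 (SE 0.194).

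For Slc2a3, 3 of the 4 V2 cKO arrays lay below all 3 V2 WT arrays, and the array labelled V2 cKO replicate 5 of the V2imm titles, whose Sox4 value goes against its label, lay among them at 9.50. That array also had the highest macrophage and dendritic marker sum, 6023 against 799 to 3034 in the other V2 arrays of the fit. The part of either in its values was not tested. For Ldhb the same array was the highest of all 7 V2 arrays at 9.30, and the other 3 V2 cKO arrays, at 7.45 to 8.002, lay below the V2 WT arrays. Without it the Ldhb difference was -0.91 and passed (adjusted p = 0.0309), 1 of 19 glycolysis genes among 44 genes in all, and Slc2a3 was at -1.003 (adjusted p = 0.0593). Without V2 cKO replicate 4 of the V2imm titles instead, Ldhb was at -0.26 (adjusted p = 0.835) and Slc2a3 at -0.33 (adjusted p = 0.714). With weights that give less to arrays that deviate, 6 glycolysis genes and 1 TCA cycle gene passed, among 2680 of all genes. The estimation of these weights did not converge. Within the V2imm arrays the Ldhb difference was -0.20 and within the immV2 arrays -0.98, and for Slc2a3 these were -0.70 and -0.64.

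In DP cells 0 of the 34 genes passed, against 0.0253% of all genes (limma), and at an unadjusted p there were 2 glycolysis genes and 0 TCA cycle genes, where 2.71% of all genes passed. Ldhb lay below both DP WT arrays in both DP cKO arrays, at 9.81 and 9.83 against 10.83 and 10.87, with a difference of -1.03 (SE 0.343, unadjusted p = 0.0102, adjusted p = 1). Slc16a1 was 0.57 (SE 0.248) higher, Slc2a3 0.40 (SE 0.330) and Hk2 0.19 (SE 0.180), each with an adjusted p of 1. In the TCA cycle the smallest p-values were those of Sdha (0.27, SE 0.204), Pdha1 (-0.33, SE 0.364), Dlst (0.18, SE 0.244) and Idh3b (0.26, SE 0.363). Intervals in DP cells were wide, with bounds from -1.78 to 1.27 over the glycolysis genes. The cKO comparisons share no array, and the test of their difference passed for 0 of 34 genes, against 0% of all genes (limma) and 1.88% at an unadjusted p. The members at the latter were Slc2a3 (-1.08, SE 0.418) and Aldoc (0.65, SE 0.259), followed by Slc16a1 (-0.60, SE 0.314) and Ldhb (0.52, SE 0.434), and in the TCA cycle by Dlst (-0.35, SE 0.309), Cs (-0.55, SE 0.520), Suclg1 (0.28, SE 0.278) and Sdha (-0.24, SE 0.258).

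**Figure D4:**
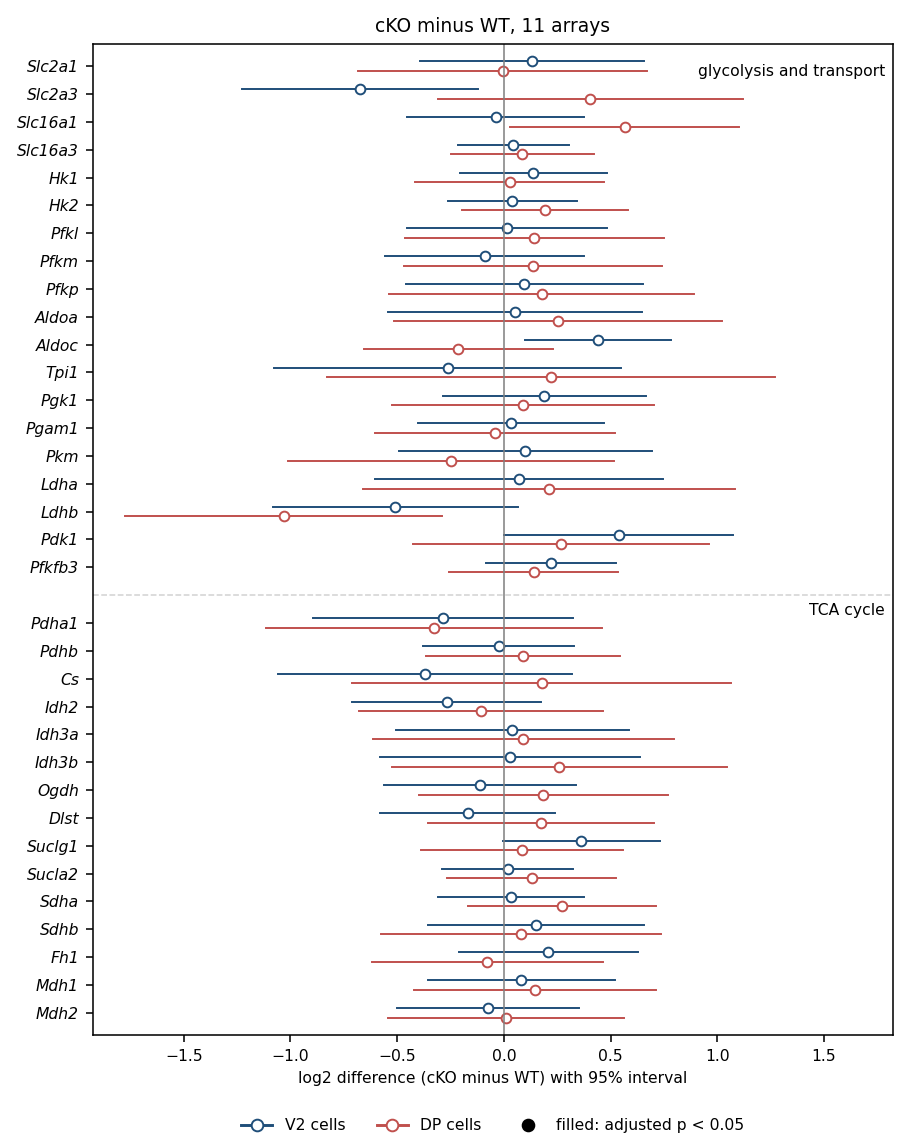
Log2 difference cKO minus WT (horizontal axis) with its 95% interval for each gene (vertical axis), in V2 and in DP cells. Every point is open: none of the 34 genes passed an adjusted p of 0.05. Slc2a3 lies at -0.67 and Ldhb at -0.51 in V2 cells, and Ldhb lies at -1.03 in DP cells.

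Within V2 cells the way a title is written also went with some of the genes. Between immV2 and V2imm arrays Aldoc was 0.90 (SE 0.159, adjusted p = 0.00905) higher in immV2, the 1 gene of 34 to pass, against 2.50% of all genes. At an unadjusted p there were 3 glycolysis and 4 TCA cycle genes, where 17.2% of all genes passed. Pdhb was next, at 0.63 (SE 0.163, adjusted p = 0.0655), and passed with 13 arrays (0.64, adjusted p = 0.0484), followed in the TCA cycle by Sdhb (0.60, SE 0.234), Fh1 (-0.49, SE 0.194) and Idh3b (0.64, SE 0.281), and in glycolysis by Ldhb (-0.84, SE 0.266), Aldoa (0.63, SE 0.275) and Ldha (0.64, SE 0.311). Of the 15 TCA cycle genes 14 lay above 0, with a median of 0.29 against -0.08 over all genes. V2 cKO replicate 4, a V2imm array with the lowest upper quartile of intensity (332.7), was the lowest of the 7 V2 arrays for 11 of 19 glycolysis genes (57.9%) and 11 of 15 TCA cycle genes (73.3%), against 23.1% of all genes.

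In the arrays shown apart, these genes followed the markers in part. The array labelled DP cKO replicate 5 had Slc2a3 at 9.18, Slc16a1 at 8.90, Ldhb at 8.78 and Pgam1 at 10.88, within or beyond the V2 range for all 4. The array labelled V2 WT replicate 5 of the immV2 titles had Slc16a1 at 10.88 and Ldhb at 10.18, within the DP range, but Slc2a3 at 8.39, above the DP arrays, and Pgam1 at 10.42, under every V2 array and above every DP array. Its Ldha minus Ldhb value was 1.91, just above the DP range, and that of the array labelled DP cKO replicate 5 was 2.88. Of the 19 glycolysis genes, 16 in the array labelled DP cKO replicate 5 were nearer the V2 mean than the DP mean. In the other array 9 were nearer the DP mean and 10 nearer the V2 mean. Of the 15 TCA cycle genes, 9 in the array labelled DP cKO replicate 5 were nearer the V2 mean, and 10 in the other array were nearer the DP mean. The share over all genes is not given here.

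Around these genes, 5 lists of the same pathways held 103 genes, of which 6 (5.83%) passed between V2 WT and DP WT, against 4.87% of all genes. Of 24 further glycolysis and transport genes, Slc16a6, of the same carrier family as Slc16a1, was 0.91 (SE 0.186, adjusted p = 0.0104) higher in V2 WT than in DP WT. In cKO cells Slc16a6 overlapped, at 7.70, 8.10, 8.10 and 8.56 in V2 and 8.10 and 8.16 in DP. Of 23 regulators of glycolysis 2 were higher, Myc at 1.49 (SE 0.201, adjusted p = 0.000520) and Prkaa1, a catalytic subunit of AMP-activated kinase, at 0.90 (SE 0.223, adjusted p = 0.0344). Myc read 9.98, 10.25 and 10.60 in V2 WT, 9.76, 9.82, 10.14 and 10.46 in V2 cKO, 8.52 and 8.89 in DP WT and 9.59 and 9.65 in DP cKO. V2 arrays lay above DP arrays in both genotypes, but the cKO difference of Myc did not pass. Its DP cKO mean lay 0.91 above that of DP WT, which did not pass either. The WT difference of Myc also passed with 13 arrays as labelled (1.43, adjusted p = 0.0326). Of 10 pentose phosphate genes Prps2, which makes the ribose precursor of nucleotides, was -0.95 (SE 0.200, adjusted p = 0.0135). Of 24 further genes of pyruvate entry and the TCA cycle 2 were higher, the citrate carrier Slc25a1 at 0.91 (SE 0.208, adjusted p = 0.0221) and Suclg2, the GTP-forming subunit of succinyl-CoA ligase, at 1.24 (SE 0.312, adjusted p = 0.0381). Of 22 respiratory chain genes and their regulators 0 passed (limma), with Nrf1 at -0.42 (SE 0.205) and Ndufb8 at -0.57 (SE 0.294) the smallest p-values.

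In cKO cells the genes of these lists that passed between V2 and DP were Slc16a7 at 1.26 (SE 0.215, adjusted p = 0.00285), Mycn at 0.87 (SE 0.230, adjusted p = 0.0450), Tktl1, a transketolase-like gene, at 0.92 (SE 0.177, adjusted p = 0.00702) and Prps2 at -1.26 (SE 0.188, adjusted p = 0.00108). Of the genes of these lists that passed in WT cells, Prps2 alone passed in cKO cells too, lower in V2 in both. None of the 5 lists had a gene past the threshold for the cKO in V2 or in DP cells, and Egln3, an oxygen-sensing prolyl hydroxylase, was -1.45 (SE 0.198, adjusted p = 0.00159) in immV2 against V2imm arrays.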

How the data were processed

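The submitters' processing notes name Affymetrix Power Tools and RMA. The deposited values were intensity on a linear scale, 1 per probe set and array, already background corrected and normalised by the authors, and no genome build is stated in the labels. Here log2 was taken of the deposited intensity of 24922 probe sets. GEO's platform table, which can be old, names 1 symbol for 21425 of them, several for 1399 and lists none for 2098, and the brightest probe set of each symbol stood for the gene.

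Differences came from limma 3.58.1 (R 4.3.3; lmFit, eBayes with trend) over 11 arrays, with 4 group means and the V2 title set as a covariate, two-sided. P-values were adjusted by Benjamini-Hochberg across all 19752 genes, and 0.05 was the limit. Small numbers of arrays limit the precision. Array pairs within a group correlated at 0.951 to 0.994 and 0 were identical. The same fit was run on simulated arrays with independent noise for each gene and array. They held no title set difference and no array low over many genes, so the run does not check those. The member genes, gene lists and tests were chosen with earlier results of these data known. Genes given with every array were those past the threshold in any comparison, 12 set by name, and the 4 smallest p-values in each pathway where fewer than 4 passed; further lists gave up to 4 genes that passed in each direction, or the 2 with the smallest p. Myc's arrays were added after its values were seen. Alternatives covered the arrays, title set, normalisation, probe sets, filter, variance model, weights and leaving out each array. Promoter windows came from RefSeq (GRCm38.p6), and figures were drawn with matplotlib 3.10.9.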

Additional observations from a re-analysis of the deposited data

Results flagged for a closer look

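For 9 of the 68 gene-by-group sets with 4 arrays, 1 array's gap to the nearest of the others exceeded Dixon's 95% limit, which chance alone passes in about 1 of 20. Genes read on the same arrays are not independent trials, and the rate over all genes is not given here. The count therefore cannot be read as particular to these genes. In 6 of the 9 sets the array was V2 cKO replicate 4 of the V2imm titles, low in V2 cKO. Its log2 intensity was 8.84 for Slc2a1 (others 9.96 to 10.09), 9.92 for Aldoa (11.34 to 11.49), 10.46 for Ldha (11.97 to 12.25), 9.27 for Cs (10.82 to 11.01), 9.001 for Idh3b (10.48 to 10.52) and 9.82 for Ogdh (10.67 to 10.70). V2 cKO replicate 4 of the immV2 titles had Pfkfb3 at 7.78 (others 7.94 to 7.97). Suclg1 was low at 8.61 in V2 cKO replicate 5 of the V2imm titles (others 8.80 to 8.82) and at 8.01 in V2 WT replicate 5 of the V2imm titles, among the 4 arrays labelled V2 WT (others 8.46 to 8.55).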

How the results depend on the processing

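Precision was limited by 2 to 4 arrays a group. With 13 arrays as labelled, the counts of glycolysis genes past the threshold between V2 and DP were 0 in WT (against 3), 0 in cKO (against 4) and 0 averaged over genotypes (against 8), with Slc2a3 at 1.75 (adjusted p = 0.320) and Ldhb at -1.76 (adjusted p = 0.407) in WT. In all 24 alternatives of the WT comparison both kept their direction, and they passed in 23 each. No called value reversed its sign under any alternative run. The cause of the moves below was not tested. In WT, the glycolysis count was 5 with only the immV2 arrays and 7 with array weights, whose estimation did not converge, and leaving out single arrays gave 2 to 5. It was 2 without any of the 5 WT arrays and 5 without V2 cKO replicate 4 or 5 of the V2imm titles. The TCA cycle count, 0, was 1 with only the immV2 arrays and 1 with array weights (Pdha1 in both). In cKO cells the glycolysis count was 2 without the title set, 1 with only the V2imm arrays, 8 with array weights and 2 with only the groups compared, and 2 (without DP cKO replicate 3) to 8 (without V2 cKO replicate 4 of the V2imm titles) leaving out single arrays. The TCA cycle count, 0, was 1 with array weights and 0 to 1 leaving out single arrays, 1 (Pdhb) without V2 cKO replicate 5 of the V2imm titles. Averaged over genotypes, a comparison chosen after seeing the data, the glycolysis count was 5 without the title set, 4 with only the V2imm arrays and 4 to 11 leaving out single arrays. Its TCA cycle count, 0, was 1 with only the V2imm arrays, 1 with only the immV2 arrays, 1 with quantile normalisation, 2 with array weights and 0 to 2 leaving out single arrays, 2 without V2 cKO replicate 4 or 5 of the V2imm titles. For V2 cKO against V2 WT, array weights gave 6 glycolysis genes and 1 TCA cycle gene, and leaving out single arrays gave 0 to 1 and 0.

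All genes past the threshold ran from 11 (13 arrays) to 2320 (array weights) in the WT comparison, 477 to 1575 leaving out single arrays, and from 7 to 2253 in cKO cells, 480 to 1632 leaving out single arrays. For V2 cKO against V2 WT they ran from 0 to 2680, and for DP cKO against DP WT from 0 to 29. Averaged over genotypes they were 2106 in the main fit and 95 with 13 arrays, and ran from 1381 to 3118 leaving out single arrays.

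The residuals of same-numbered WT and cKO arrays correlated at 0.18 in DP cells and at -0.50, -0.35 and -0.22 in V2 cells. The fit makes residuals cancel within each V2 title set, which pushes the V2 correlations down. They therefore cannot show whether same-numbered arrays are pairs. The main fit did not take the numbers as pairs. With the title's number as a replicate block, 2 glycolysis genes passed in WT, 3 in cKO and 8 averaged, Slc16a1 was -0.95 in WT (adjusted p = 0.0507) and Pgam1 was 0.80 in cKO cells (adjusted p = 0.0823). The cKO comparisons and their difference had 0 genes of either pathway past the threshold with either replicate block (limma), and the block of title set and number gave 34 of all genes in V2.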
